A study of Mus musculus with 24 samples.

Results

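Potassium channel genes are described here as all rows of the deposited expression table whose symbol starts with Kcn followed by a letter and a number. The rule found 32 of the 16617 genes in the table. Of these, 31 encode channel subunits and 1, Kcnq1ot1, is a long antisense RNA that overlaps the channel gene Kcnq1 and is given apart. The GENCODE vM21 annotation holds 83 symbols of this form, and the 51 that are not among the rows of the table were not analysed here. The table held genes with 0.5 CPM (counts relative to the size of a library) or more in at least 3 libraries, so the 32 members are those with some signal in these cells.

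The study measured poly(A) 3′ end RNA tags in mouse embryonic stem cells of 4 genotypes in a naive and a formative state, with 3 labelled samples in each of the 8 groups. Wild type (WT) and MLL3CD_MLL4CD cells, called catalytic-dead here, came from the R1 line. MLL3KO_MLL4fl cells (floxed) lack MLL3 and carry a conditional MLL4 allele, and MLL3KO_MLL4KO cells (knockout) lack both. Both proteins place methyl groups on lysine 4 of histone H3, mainly at enhancers. Formative cells had been without LIF and 2 inhibitors, the agents of the naive medium, for 63 h. The floxed line served as the control for the knockout and wild type as the control for the catalytic-dead line, and the state change was measured within each genotype. The floxed control thus shares the loss of MLL3 with the knockout, and any effect of that loss cannot be told apart from other differences between the floxed and R1 lines. No clone number is given for any line.

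Potassium channels let potassium leave or enter the cell and so set the resting membrane potential. Voltage-gated (Kv) channels open on depolarisation, and inward rectifiers (Kcnj) and two-pore leak channels (Kcnk) hold the resting potential. Calcium-activated channels (Kcnn) couple this potential to calcium. The Slo members here are the sodium-activated Kcnt2 and the sperm channel Kcnu1. Silent Kv subunits (Kcng, Kcns) and Kcne proteins form no channel alone and modify those of other subunits. In embryonic stem cells, which are not excitable, potassium channels have been linked to volume control and the cell cycle.

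The 150 bases before a RefSeq start (GRCm38.p6) are printed for 5 of the members that changed in at least 3 of the 4 genotypes. Other such members are not printed. The stretches run 5′ to 3′ on the gene's strand, to show how unlike the promoters of genes with a shared direction can be. Capitals mark a GC box, GGGCGG or its reverse complement. Kcnj3 (chr2:55435820-55435969, plus strand) and Kcnj4 (chr15:79505242-79505391, minus strand) rose at the state change. Kcnk5 (chr14:20181783-20181932, minus strand), Kcnj12 (chr11:61065654-61065803, plus strand) and Kcns3 (chr12:11150843-11150992, minus strand) fell.
Kcnj3: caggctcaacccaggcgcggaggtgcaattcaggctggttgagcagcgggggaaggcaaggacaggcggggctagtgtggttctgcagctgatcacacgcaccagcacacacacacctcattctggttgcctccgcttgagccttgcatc
Kcnj4: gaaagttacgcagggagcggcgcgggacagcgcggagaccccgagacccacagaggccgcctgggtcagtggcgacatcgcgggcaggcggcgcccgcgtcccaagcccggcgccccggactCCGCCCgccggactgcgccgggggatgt
Kcnk5: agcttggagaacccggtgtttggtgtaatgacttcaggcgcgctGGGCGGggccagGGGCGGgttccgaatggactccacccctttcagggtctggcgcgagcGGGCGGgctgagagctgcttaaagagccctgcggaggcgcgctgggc
Kcnj12: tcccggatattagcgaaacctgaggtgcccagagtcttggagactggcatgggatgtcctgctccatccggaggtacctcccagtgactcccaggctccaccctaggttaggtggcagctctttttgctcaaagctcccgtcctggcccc
Kcns3: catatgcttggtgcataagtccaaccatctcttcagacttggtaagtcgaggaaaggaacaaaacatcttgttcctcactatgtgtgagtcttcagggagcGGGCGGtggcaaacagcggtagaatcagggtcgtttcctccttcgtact
The Kcnj4 stretch was 76.7% G or C with 23 CpG and held 1 GC box. That of Kcnk5 was 67.3% G or C with 13 CpG and held 3. Kcnj3 had 61.3% and 6 CpG, Kcnj12 59.3% and 4 CpG, and Kcns3 48.7% and 6 CpG with 1 GC box. Another RefSeq promoter of Kcns3, of 300 bases and not printed, had 74.0% and 32 CpG. The Kcnj12 start used here lies inside the GENCODE gene, which runs from 61022564 to 61071131. The printed Kcns3 stretch also lies inside its GENCODE gene (11090202 to 11151056). That of Kcnk5 overlaps its gene in part (20140057 to 20181809). Among these 5 printed stretches, base composition thus did not divide the genes that rose from those that fell. Other starts and members were not compared in this way.

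RefSeq promoters of 300 bases, from 250 before to 50 after the start, were found for 21 of the 32 members, which had 26 promoters. Their median G or C content was 62.5%, against 52.7% over all 32851 promoters, and their median CpG number was 12 against 7. The GC box was in 15 of the 26, and in 35.7% of all promoters. CCAAT was in 7 of the 26 and in 37.4% of all, and the E-box CACGTG in 2 and in 7.15%. The TATA box TATAAA was in 1 (Kcnj9) and in 13.6% of all, and the TCF/LEF site CTTTGAT in 1 (Kcnk2) and in 3.73%. No member promoter held the octamer ATGCAAAT (1.74% of all), the cyclic AMP response element TGACGTCA (1.79%), the ESRRB site TCAAGGTCA (0.423%) or the left part of RE1, TTCAGCACC (0.371%). All were searched on both strands and none contains another. A match is a description of letters only.

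Counts of single libraries were recovered from the group means of the table for 23 libraries of 4.81 to 15.4 M counts. The naive wild-type column was a mean of 2 libraries. The formative knockout column was a mean of 4, of which 1 library of 6919314 counts was also part of the formative catalytic-dead column. That library is used here as catalytic-dead library c and was left out of the knockout, and values that change with this choice are given where they occur. Libraries are called a, b and c by falling depth and carry no link to the labelled replicate numbers. Summed levels of 9 naive markers ran from 1740 to 2290 CPM in the naive columns and from 299 to 441 CPM in the formative ones. Summed levels of 6 formative markers ran from 104 to 203 CPM and from 1590 to 2520 CPM, so the sums followed the state labels. The sums were led by abundant genes, and some naive markers went the other way in a genotype. Dppa3 averaged 8.25 CPM in naive and 12.8 CPM in formative floxed cells. Nr0b1 averaged 4.54 CPM in naive and 8.32 CPM in formative knockout cells, with the column as deposited. The authors' mean of Kmt2c, the MLL3 gene, was 37.1 to 48.8 CPM in wild-type and 19.2 to 23.4 CPM in floxed and knockout columns, and that of Kmt2d, the MLL4 gene, was 17.6 and 19.9 CPM in knockout against 28.8 and 25.5 CPM in floxed columns. A 3′ tag outside the deleted part of a gene does not check its deletion. In bulk RNA, fewer cells of a type and less RNA per cell cannot be told apart. A tag count does not grow with transcript length, so levels are per transcript end and can be set side by side across genes only as such.

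The 30 channels with a value in every library together took up 91.9 and 94.4 CPM in the 2 naive wild-type libraries and 140.6 to 153.6 CPM in the formative ones. Floxed cells went from 75.7 to 88.8 CPM in the naive state to 110.7 to 117.6 CPM in the formative one, and knockout cells from 43.5 to 55.8 CPM to 97.4 to 100.5 CPM. These ranges did not overlap within any of the 3 genotypes. In the catalytic-dead line they did, with 83.8 to 110.2 CPM in naive and 85.7 to 96.9 CPM in formative cells. These sums leave out Kcnk1, whose library counts were not recovered in formative cells, and the overlap was not measured with it. With the authors' mean of Kcnk1 added, the catalytic-dead group total went from 97.3 CPM to 142.2 CPM at the state change, and the formative total was the higher one in the other 3 genotypes as well (98.5 and 216.3 CPM in wild-type, 89 and 168.2 CPM in floxed, 55.1 and 122.4 CPM in knockout cells). Naive knockout cells had the lowest sums of all groups, and formative wild-type cells the highest.

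**Figure D1:**
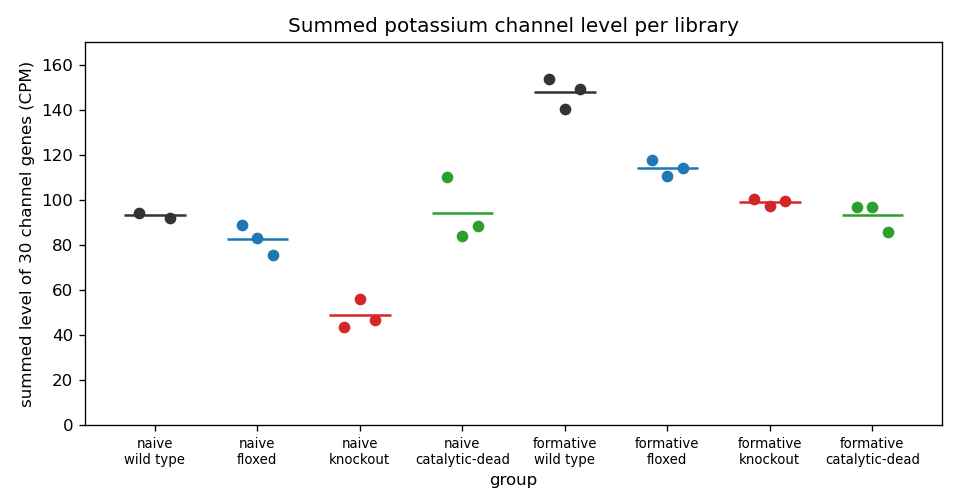
Summed level of 30 potassium channel genes (CPM, vertical axis) in each recovered library (points) by group (horizontal axis), with bars at the group means. Naive knockout libraries lie lowest, from 43.5 to 55.8 CPM, and formative wild-type libraries highest, from 140.6 to 153.6 CPM.

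A handful of genes made up most of the sum over these 30 channels. In naive wild-type cells Kcnk5, an acid-sensitive two-pore leak channel, averaged 36.2 CPM, or 38.9% of the sum, ahead of Kcnj12 at 9.09 CPM and Kcnj4 and Kcns3 at 6.99 CPM each. In formative wild-type cells the inward rectifiers Kcnj4, at 31.5 CPM, and Kcnj3, at 26.5 CPM, led, and Kcnk5 came next with 14.9 CPM. Kcnk5 also led in the naive floxed (24 CPM), naive knockout (9.58 CPM), naive catalytic-dead (36.5 CPM) and formative catalytic-dead (23.7 CPM) cells. Only 7 of the 32 members reached a column mean of 10 CPM in any group.

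**Figure D2:**
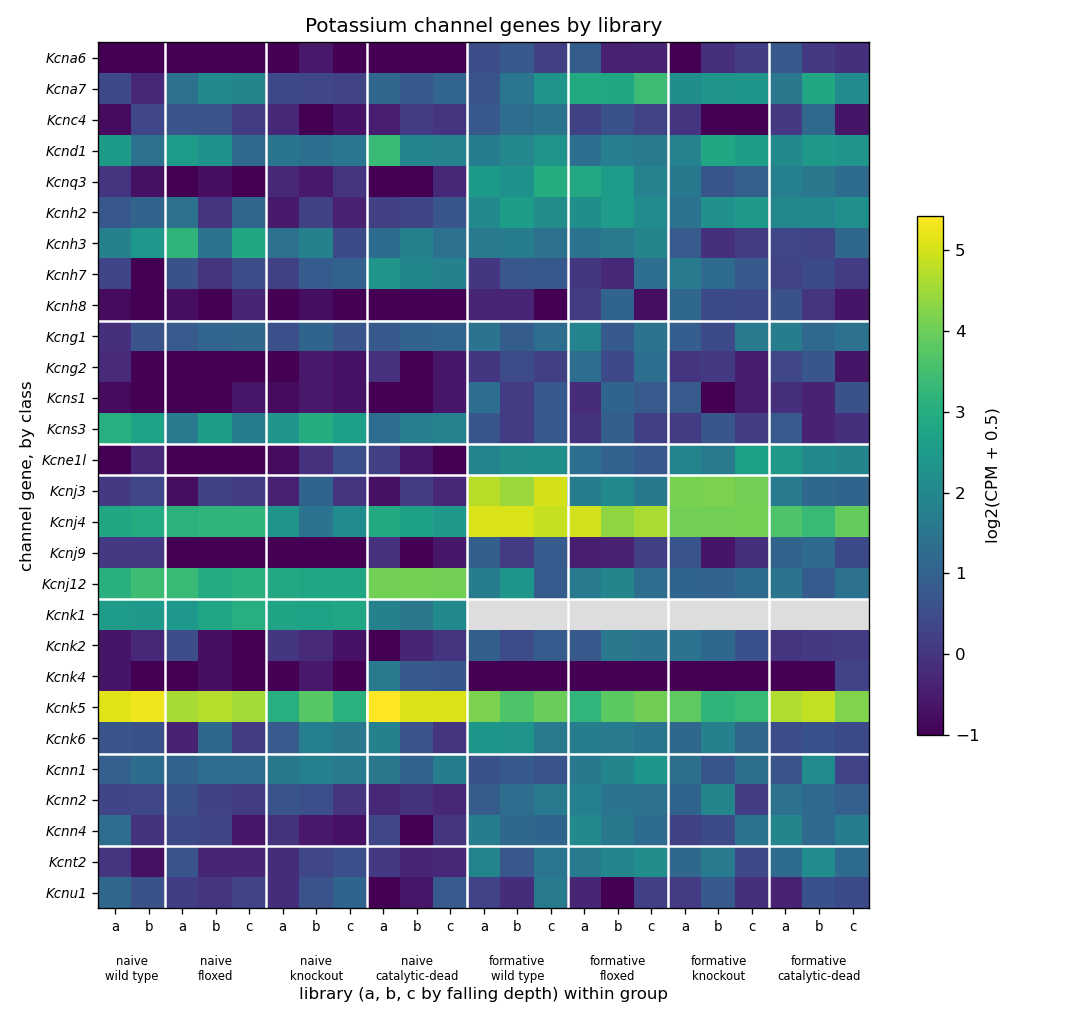
Level of 28 channel genes (rows, by class) in each recovered library (columns, a to c by falling depth within a group), as log2(CPM + 0.5) on the colour scale; grey cells were not recovered. Kcnk5 is brightest in naive wild-type and catalytic-dead libraries, and Kcnj4 in formative wild-type ones, where it averaged 31.5 CPM.

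Differences between groups were tested with limma on log2 CPM across all genes, and a gene is said to have risen, fallen or changed only where its Benjamini-Hochberg adjusted p was under 0.05. The prior count of 2 in the log2 values understates the change of genes with few counts. At the naive to formative change in wild-type cells, 13 of 30 channels tested rose (43.3%), against 19.3% of all genes tested, and 3 fell, against 12.3%. The median log2 difference was 1.23 over the channels and 0.16 over all genes. In floxed cells 15 of 30 rose, against 22.1% of all genes, and 3 fell, against 11.4%, with medians of 1.35 and 0.19. In knockout cells 11 of 30 rose, against 21.4%, and 2 fell, against 5.5%, with medians of 0.96 and 0.29. In catalytic-dead cells 13 of 30 rose, against 18.3%, and 5 fell, against 11%, with medians of 0.92 and 0.12. In each genotype the share of channels that rose was thus above the share of all genes. A channel silent in naive cells, such as Kcna6, passed the filter on low counts only through groups in which it had counts. For such a channel a rise was favoured by the filter. Channels and all genes were not matched by level, so the 2 shares are a description only.

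Across the 4 genotypes, 6 channels rose in every one: Kcnj3, Kcnj4, Kcnq3, Kcnh2, Kcna7 and Kcne1l. Kcnj12 and Kcns3 fell in every one, and Kcnk5 fell in 3. Another 4 channels rose in 3 genotypes, 6 in 2 and 4 in 1, and no channel rose in one genotype and fell in another. Kcnd1, Kcng1, Kcnh3, Kcnn1 and Kcnu1 passed the threshold in none. The share of all genes that changed in every genotype, or in a given number of them, was not computed. These counts are thus a description only.

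Between genotypes within a state, fewer channels differed than at the state change. Against floxed cells, none of 31 channels rose in naive knockout cells, where 8.21% of all genes did, and 6 fell (19.4%), against 9.41%. In formative knockout cells 1 of 30 rose (3.33%), against 10.8%, and 3 fell (10%), against 6.68%. Naive catalytic-dead cells had 3 of 31 channels higher than wild type (9.68%), against 6.15% of all genes, and 2 lower (6.45%), against 4.57%. In formative catalytic-dead cells none of 30 rose, against 4.67%, and 6 fell (20%), against 3.36%. The floxed line differed from wild type in 1 of 31 channels in the naive state, which was higher (1.92% of all genes were higher and 3.01% lower), and in 2 higher and 2 lower of 30 in the formative state (4.04% and 5.31%). These comparisons share their control libraries with each other and with the state changes. At an unadjusted limma p under 0.05, 3 channels were higher in naive knockout and 1 in formative catalytic-dead cells, and 4 were lower in naive floxed cells.

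Some of these counts rested on single libraries. The count of 4 in formative knockout cells was 1 without floxed library a or knockout library b, and 2 without floxed library c. The count of 5 in naive catalytic-dead cells was 2 without wild-type library a or catalytic-dead library a or b, and 3 without wild-type library b. That of 6 in formative catalytic-dead cells was 2 without wild-type library a, and 3 without catalytic-dead library a or b. The naive floxed count of 1 was 0 without wild-type library a or b or floxed library c. The formative floxed count of 4 was 1 without wild-type library a, and 2 without wild-type library b or floxed library b or c. The 6 of naive knockout cells were 4 without floxed library c or knockout library c. Directions moved too. In naive knockout cells 2 channels were higher and 4 lower without knockout library a, and 1 was higher and 6 lower without floxed library b. In formative catalytic-dead cells 1 was higher and 4 lower without catalytic-dead library c, and the single call of naive floxed cells was a lower one without floxed library b. The 16 and 18 changes at the wild-type and floxed state change moved by less than 1.5 times, as did the counts of the other 2 state changes.

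The size of the state change itself was also compared between genotypes. It was smaller in knockout than in floxed cells for 1 of 30 channels, Kcnq3, and larger for none, against 3.21% and 5.4% of all genes. It was smaller in catalytic-dead than in wild-type cells for 2 channels, Kcnj3 and Kcnh7, and larger for none, against 1.39% and 1.73%. At an unadjusted limma p under 0.05 the larger changes numbered 5 and 2. For knockout against floxed cells, no channel passed without naive knockout library a or c. Without naive floxed library a or formative knockout library b, 1 change was larger and none smaller, and without naive floxed library c 2 were larger and none smaller. Without formative floxed library c 1 was larger and 1 smaller, and without naive knockout library b 2 were larger and 1 smaller. For catalytic-dead against wild-type cells, the count was 0 without naive wild-type library b, and 1 without naive wild-type library a, any one naive catalytic-dead library or formative catalytic-dead library a.

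**Figure D3:**
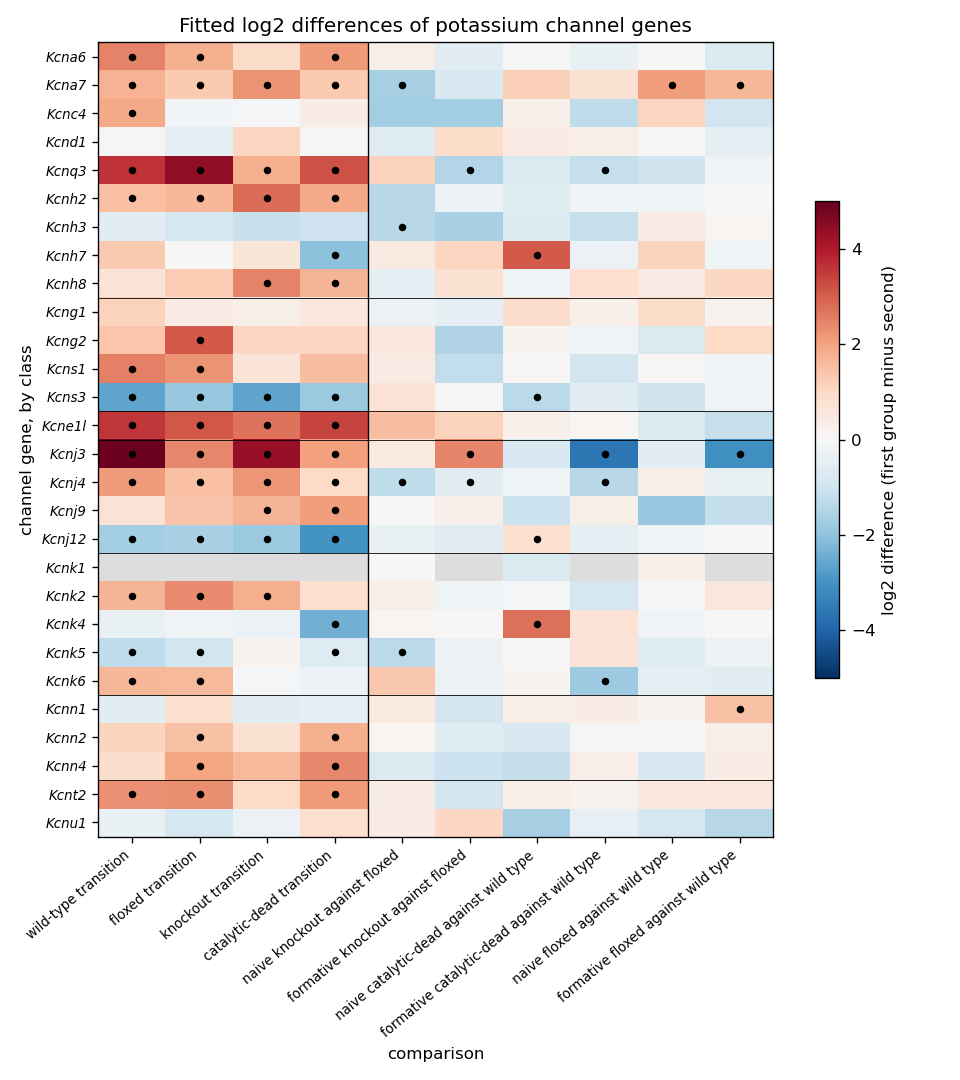
Fitted log2 difference (colour) of 28 channel genes (rows, by class) in 10 comparisons (columns), with a dot where the adjusted p was under 0.05 and grey where no test was possible. The 4 state changes on the left hold most of the dots, with 12, 14, 9 and 12 rising genes among those plotted.

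Inward rectifiers included Kcnj4 and Kcnj3, the most abundant of the 30 summed channels in formative wild-type cells. Kcnj3 and Kcnj4 rose in all 4 genotypes, Kcnj9 rose in 2, and Kcnj12 fell in all 4. Kcnj3 encodes GIRK1, the channel subunit opened by G protein beta-gamma after activation of inhibitory receptors. Naive wild-type libraries held 0.562 and 0.792 CPM of it and formative ones 26.2, 21.5 and 31.8 CPM. That is a 39.1-fold rise, with a log2 difference of 4.91 (SE 0.50, limma adjusted p = 3.578e-08). Knockout cells went from 0.259, 1.6 and 0.495 CPM to 17.1, 17.3 and 16.2 CPM, a log2 difference of 4.35 (SE 0.41, adjusted p = 1.4e-08). In both genotypes every formative library was above every naive one.

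Kcnj3 rose far less in the other lines. Floxed cells reached 2.75, 3.73 and 2.52 CPM from 0.0932 to 0.673 CPM (log2 difference 2.41, SE 0.49, limma adjusted p = 3.955e-04). Catalytic-dead cells reached 2.65, 1.70 and 1.59 CPM from 0.112 to 0.609 CPM (2.05, SE 0.51, adjusted p = 3.416e-03). The formative groups therefore formed a high pair, wild type and knockout, and a low pair, floxed and catalytic-dead, with no overlap between the pairs. Formative catalytic-dead cells were 13.4-fold lower than wild type (log2 difference -3.62, SE 0.32, adjusted p = 1.105e-07). Formative floxed cells were 8.83-fold lower than wild type (-3.06, SE 0.28, adjusted p = 8.229e-08). Formative knockout cells were 5.63-fold higher than their floxed control (2.43, SE 0.30, adjusted p = 1.491e-06), and with the shared library kept in the knockout column the difference was 1.62 with an adjusted p of 0.0818. No naive contrast of Kcnj3 passed the threshold.

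The state change of Kcnj3 differed between catalytic-dead and wild-type cells by a log2 value of -2.86 (SE 0.71, limma adjusted p = 0.0225). This call was lost without naive wild-type library a or b, or without naive catalytic-dead library b or c (adjusted p = 0.0566 to 0.147), and with a prior count of 0.5 (adjusted p = 0.163). Between knockout and floxed cells it differed by 1.94 (SE 0.64, adjusted p = 0.0581), which missed the threshold.

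Kcnj4, which encodes the strong inward rectifier Kir2.3, had the highest level of the 30 summed channels in formative wild-type cells. In wild-type libraries it went from 6.74 and 7.24 CPM to 33.0, 33.0 and 28.6 CPM, a 4.51-fold rise (log2 difference 2.14, SE 0.24, limma adjusted p = 1.606e-07). Floxed cells went from 8.20 to 8.76 CPM to 31.0, 19.9 and 23.9 CPM (1.5, SE 0.21, adjusted p = 3.352e-06). Knockout cells began lower, at 4.54, 2.22 and 3.84 CPM, and ended at 16.2, 16.3 and 16.4 CPM (2.20, SE 0.26, adjusted p = 3.511e-07). Catalytic-dead cells went from 7.04, 5.93 and 5.09 CPM to 12.2, 9.74 and 14.5 CPM (0.98, SE 0.25, adjusted p = 4.225e-03). The formative levels thus fell into the order wild type, floxed, knockout and catalytic-dead, and the wild-type and floxed libraries overlapped.

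In the naive state Kcnj4 was 2.42-fold lower in knockout than in floxed cells (log2 difference -1.28, SE 0.27, limma adjusted p = 1.098e-03). In the formative state the log2 difference was -0.58 (SE 0.19, adjusted p = 0.0365). This second call was lost without formative floxed library a or c or any one knockout library (adjusted p = 0.0637 to 0.192). Formative catalytic-dead cells had 2.60-fold less Kcnj4 than wild type (-1.38, SE 0.19, adjusted p = 2.803e-05). Kcnj4 was thus lower in the mutant than in its control in 3 of the 4 mutant comparisons, the exception being naive catalytic-dead cells (-0.22, SE 0.29, adjusted p = 0.704).

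Kcnj12 encodes Kir2.2, a strong inward rectifier of the same subfamily as Kcnj4, and moved the other way. Wild-type libraries went from 8.01 and 10.2 CPM down to 2.74, 4.81 and 1.33 CPM, a 3.07-fold fall (log2 difference -1.71, SE 0.31, limma adjusted p = 1.172e-04). Catalytic-dead libraries went from 16.2, 16.4 and 16.2 CPM to 2.29, 1.32 and 2.17 CPM, an 8.45-fold fall (-2.98, SE 0.32, adjusted p = 9.414e-08). Floxed (-1.61, SE 0.30, adjusted p = 1.465e-04) and knockout cells (-1.84, SE 0.37, adjusted p = 4.135e-04) fell as well. Naive catalytic-dead libraries were all above all other naive libraries of this gene. Their difference from wild type was 0.84 (SE 0.25, adjusted p = 0.0345). It was lost without naive wild-type library a or any one catalytic-dead library (adjusted p = 0.0733 to 0.296), and with median-ratio size factors (0.69, adjusted p = 0.0854).

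Kcnj9 encodes GIRK3, a partner subunit of Kcnj3, and stayed under 2 CPM. It was at 0 in the naive knockout libraries and at 1.10, 0.143 and 0.416 CPM in the formative ones, at least 6.42-fold higher against a floor of 3 counts over the naive group (limma adjusted p = 0.0278). This call was lost without any one naive library or formative library a (adjusted p = 0.0656 to 0.178). In catalytic-dead cells Kcnj9 went from 0.447, 0 and 0.164 CPM to 1.57, 1.80 and 0.867 CPM (log2 difference 2.09, SE 0.50, adjusted p = 2.403e-03).

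**Figure D4:**
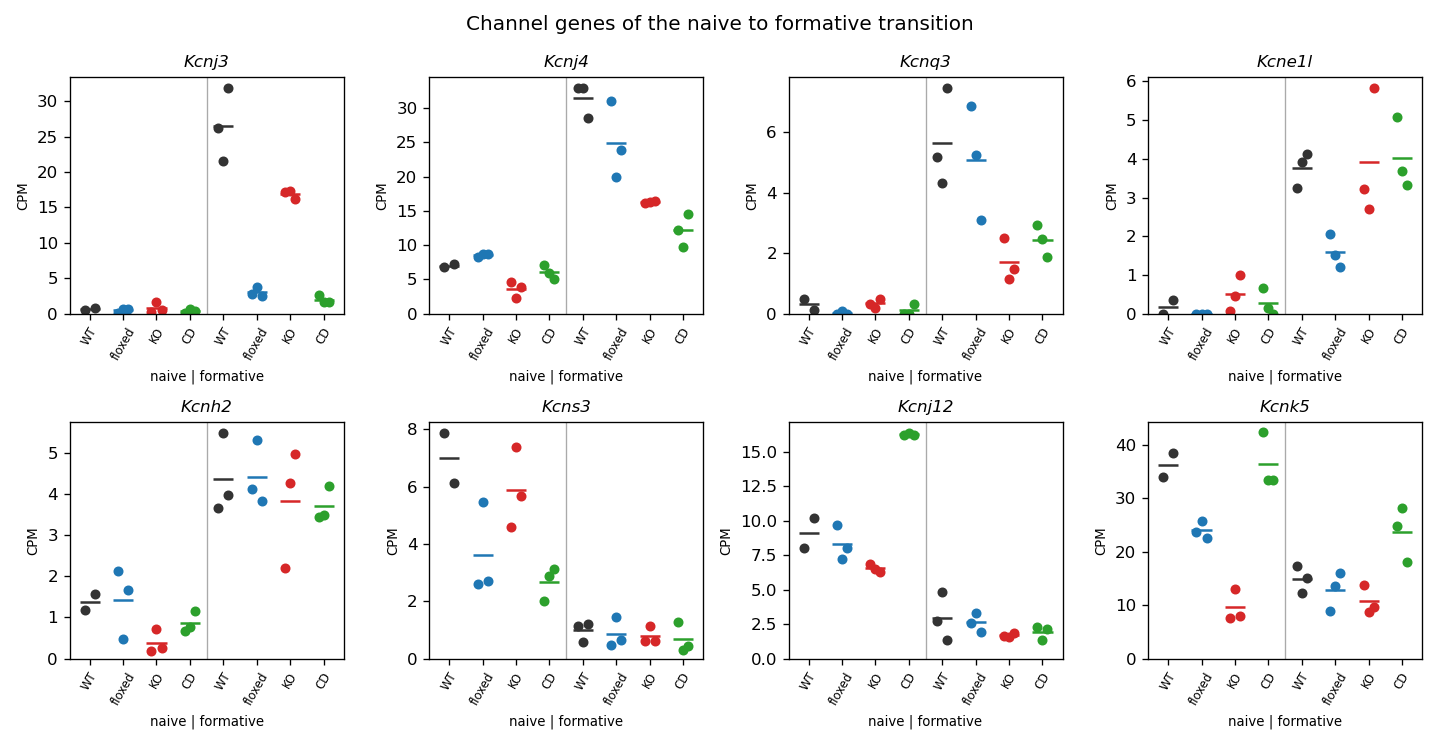
Level (CPM, vertical axis) of 8 channel genes in each recovered library (points) by genotype in naive (left of the line) and formative cells, with bars at group means. Kcnj3 is high in formative wild-type (21.5 to 31.8 CPM) and knockout libraries (16.2 to 17.3 CPM) and low in the floxed and catalytic-dead ones.

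Among two-pore leak channels, Kcnk5 was the most abundant channel of naive cells, and Kcnk1 had the higher mean in all 4 formative columns. Kcnk5 fell in 3 of the 4 genotypes, Kcnk2 rose in 3, Kcnk6 rose in 2, and Kcnk4 fell in catalytic-dead cells. Kcnk5 encodes TASK-2, which conducts at alkaline outside pH and takes part in volume control. Wild-type libraries dropped from 34.0 and 38.5 CPM to 17.4, 12.2 and 15.1 CPM, a 2.43-fold fall (log2 difference -1.28, SE 0.24, limma adjusted p = 1.416e-04). Floxed cells went from 23.7, 25.8 and 22.5 CPM to 8.86, 13.6 and 16 CPM (-0.93, SE 0.23, adjusted p = 2.221e-03). Catalytic-dead cells went from 42.5, 33.5 and 33.5 CPM to 24.9, 28.2 and 18.1 CPM (-0.63, SE 0.21, adjusted p = 0.0234), and that call was lost without naive library a or formative library c (adjusted p = 0.123 and 0.149).

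Knockout cells had a low Kcnk5 level in both states, at 7.65, 13 and 8.04 CPM in naive and 13.8, 8.71 and 9.57 CPM in formative libraries. The 2 ranges overlapped and the state difference was 0.17 (SE 0.27, limma adjusted p = 0.706). In the naive state Kcnk5 was 2.51-fold lower in knockout than in floxed cells (log2 difference -1.34, SE 0.24, adjusted p = 1.691e-04). The difference between the knockout and floxed state changes was 1.10 (SE 0.35, adjusted p = 0.0525), which missed the threshold. In the formative state knockout and floxed libraries overlapped.

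Kcnk1 encodes TWIK-1, a weakly conducting leak channel. The authors' wild-type mean of it was 5.33 CPM before and 68.5 CPM after the state change, the highest mean of any channel of the table. The floxed means were 6.46 and 54.1 CPM, the catalytic-dead means 3.19 and 49.1 CPM, and the knockout means 6.42 and 23.2 CPM (28.0 CPM as deposited, with the shared library). The mean was thus higher in formative than in naive cells in each genotype, by 3.69, 3.07, 3.95 and 1.85 on the log2 scale in that order. No library values or test exist for the formative columns of this gene. In naive cells the libraries were recovered and no contrast passed the threshold.

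Kcnk2 encodes TREK-1, a channel opened by stretch. It rose in wild-type (0.140 and 0.339 CPM to 1.44, 0.883 and 1.33 CPM), floxed (0 to 0.932 CPM to 1.22, 2.46 and 2.24 CPM) and knockout cells (0.124 to 0.519 CPM to 2.21, 1.71 and 1.04 CPM). The log2 differences were 1.69 (SE 0.64, limma adjusted p = 0.0445), 2.35 (SE 0.53, adjusted p = 1.021e-03) and 1.81 (SE 0.56, adjusted p = 0.0159). The wild-type call was lost without naive library a or b or formative library a or c (adjusted p = 0.0835 to 0.285), and with median-ratio size factors (adjusted p = 0.0576). The knockout call was lost without naive library c or formative library a (adjusted p = 0.089 and 0.0807). Kcnk2 in all 23 libraries lay between 0 and 2.46 CPM.

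Kcnk6, which encodes TWIK-2, rose in wild-type cells from 1.12 and 1.02 CPM to 4.75, 4.51 and 2.66 CPM (log2 difference 1.67, SE 0.52, limma adjusted p = 0.0141). Floxed cells went from 0.279, 1.73 and 0.604 CPM to 2.83, 2.62 and 2.33 CPM (1.61, SE 0.50, adjusted p = 0.0131). The wild-type call was lost without naive library a or b (adjusted p = 0.11 and 0.0759) and the floxed one without naive library a (adjusted p = 0.102). In formative catalytic-dead cells Kcnk6 stood at 0.930, 1.04 and 0.867 CPM, 4.2-fold below wild type with no overlap (-1.82, SE 0.46, adjusted p = 0.0131). That call was lost without formative wild-type library a or catalytic-dead library a (adjusted p = 0.0597 and 0.0614).

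Kcnk4 encodes TRAAK, a mechanosensitive leak channel, and was at or near 0 in most libraries. Naive catalytic-dead libraries held 2.68, 1.22 and 1.15 CPM, while naive wild-type libraries held 0.140 and 0 CPM. The log2 difference was 2.74 (SE 0.58, limma adjusted p = 2.922e-03), lost without naive wild-type library b (adjusted p = 0.0546). In formative catalytic-dead cells Kcnk4 was at 0, 0 and 0.723 CPM, 6.97-fold lower than in naive cells (-2.39, SE 0.51, adjusted p = 7.974e-04). Exons of Kcnk4 are shared with Catsperz on the same strand, whose difference between naive catalytic-dead and wild-type cells was -0.67 (SE 0.26, adjusted p = 0.0969), the other direction from Kcnk4. At the catalytic-dead state change Catsperz fell like Kcnk4 (log2 difference -1.25, SE 0.29, adjusted p = 1.757e-03). The part of shared reads in the Kcnk4 values was not tested.

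Voltage-gated pore subunits were the largest class, with 12 channels tested. In it 6 rose at the state change in wild-type, 5 in floxed, 6 in knockout and 6 in catalytic-dead cells, and 1, Kcnh7, fell in catalytic-dead cells. Over all genes 19.3%, 22.1%, 21.4% and 18.3% rose and 12.3%, 11.4%, 5.5% and 11% fell in that order. The class holds Kcna6, for which the filter favoured a rise. Kcnq3 encodes a subunit of the M-current, which damps repetitive firing in neurons. Kcnq3 went from 0.492 and 0.113 CPM to 5.19, 4.32 and 7.44 CPM in wild-type libraries, an 18.7-fold rise (log2 difference 3.60, SE 0.57, limma adjusted p = 1.852e-05). Floxed cells had a single count in 3 naive libraries and 6.87, 5.25 and 3.08 CPM in the formative ones (4.43, SE 0.48, adjusted p = 9.534e-08). Catalytic-dead cells went from 0, 0 and 0.328 CPM to 2.93, 2.46 and 1.88 CPM (3.20, SE 0.51, adjusted p = 2.698e-05).

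Kcnq3 rose least in knockout cells, from 0.324, 0.177 and 0.495 CPM to 2.51, 1.14 and 1.46 CPM (log2 difference 1.81, SE 0.55, limma adjusted p = 0.0148), a call lost without naive library b or formative library a (adjusted p = 0.0747 and 0.0915). The knockout state change was smaller than the floxed one by 2.62 (SE 0.73, adjusted p = 0.0218). That call was lost without naive floxed library a or c, naive knockout library a or c, or formative knockout library b (adjusted p = 0.051 to 0.0729). Formative knockout cells had 2.98-fold less Kcnq3 than floxed cells (-1.46, SE 0.40, adjusted p = 0.0115), lost without formative floxed library a or knockout library b (adjusted p = 0.0548 and 0.0698). Formative catalytic-dead cells had 2.33-fold less than wild type (-1.14, SE 0.35, adjusted p = 0.0409), lost without wild-type library a or c or any one catalytic-dead library (adjusted p = 0.0858 to 0.141). In both mutant comparisons the formative libraries did not overlap.

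Kcnh2 encodes hERG, the channel of cardiac repolarisation, and rose in all 4 genotypes. Wild-type libraries climbed from 1.19 and 1.58 CPM to 3.67, 5.49 and 3.99 CPM (log2 difference 1.52, SE 0.44, limma adjusted p = 9.426e-03), a call lost without naive library a (adjusted p = 0.129). Floxed (1.67, SE 0.39), knockout (2.80, SE 0.49) and catalytic-dead cells (1.90, SE 0.46) rose as well, with adjusted p-values of 1.487e-03, 8.296e-05 and 2.416e-03. Knockout libraries began lowest, at 0.194, 0.710 and 0.248 CPM, and reached 2.21, 4.28 and 4.99 CPM. No contrast between genotypes passed the threshold for Kcnh2.

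Kcna7, a Shaker-type subunit known from muscle, was highest in the floxed line. Naive floxed libraries held 2.14, 3.65 and 3.32 CPM, against 0.843 and 0.339 CPM in wild-type and 0.843, 0.799 and 0.743 CPM in knockout cells. Formative floxed libraries held 6.95, 6.60 and 10.1 CPM, above all other formative libraries of this gene except catalytic-dead library b at 6.62 CPM. Floxed cells thus differed from wild type in both states, by 2.07 (SE 0.59, limma adjusted p = 0.0365) and 1.67 (SE 0.36, adjusted p = 2.804e-03) on the log2 scale. The naive call was lost without wild-type library a or b or floxed library b or c (adjusted p = 0.0735 to 0.259), and the formative one without wild-type library a (adjusted p = 0.0524). Naive knockout cells were 3.82-fold below floxed cells (-1.67, SE 0.49, adjusted p = 0.0171), lost without floxed library b or any one knockout library (adjusted p = 0.0526 to 0.0604).

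Kcna7 rose in all 4 genotypes at the state change. The log2 differences were 1.72 (SE 0.59) in wild-type, 1.32 (SE 0.35) in floxed, 2.23 (SE 0.48) in knockout and 1.3 (SE 0.45) in catalytic-dead cells. The limma adjusted p-values were 0.0271, 4.023e-03, 9.06e-04 and 0.0318 in that order. The wild-type call was lost without naive library a or b or formative library c (adjusted p = 0.0716 to 0.219). The catalytic-dead call was lost without any one naive library or formative library b (adjusted p = 0.0639 to 0.153).

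Kcnc4, a Shaw-type subunit, rose in wild-type cells, from 0.0702 and 0.792 CPM to 1.22, 1.96 and 2.26 CPM (log2 difference 1.91, SE 0.67, limma adjusted p = 0.0313), and the call was lost without naive library a or formative library b or c (adjusted p = 0.0568 to 0.435). It passed the threshold in no other genotype, and neither test of a difference between genotypes' changes passed it.

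Kcna6, another Shaker-type subunit, was at 0 in all naive wild-type, floxed and catalytic-dead libraries. Formative libraries held 0.936, 1.28 and 0.664 CPM in wild-type, 1.37, 0.254 and 0.280 CPM in floxed and 1.22, 0.568 and 0.434 CPM in catalytic-dead cells. Against a floor of 3 counts over the naive group these were at least 7.38-fold, 5.89-fold and 5.32-fold higher (limma adjusted p = 3.189e-03, 0.0157 and 5.166e-03). The floxed call was lost without formative library a (adjusted p = 0.149). Kcnh8, an Elk-type channel, was under 2 CPM in every library. It rose in knockout cells from 1 count in 3 naive libraries to 1.70, 0.856 and 0.832 CPM (log2 difference 2.47, SE 0.61, adjusted p = 2.976e-03). In catalytic-dead cells it went from 0 to 1, 0.473 and 0.145 CPM, at least 3.88-fold higher (adjusted p = 0.0438), and the call was lost without any one naive library or formative library a or b (adjusted p = 0.0804 to 0.223).

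Kcnh3, an Elk-type channel of the forebrain, and Kcnh7, an Erg-type channel, differed between genotypes in the naive state. Kcnh3 was lower in naive knockout than in floxed cells, at 2.20, 3.02 and 0.866 CPM against 8.66, 2.21 and 6.65 CPM (log2 difference -1.38, SE 0.43, limma adjusted p = 0.0243), and these libraries overlapped. The call was lost without floxed library a or c or knockout library a or c (adjusted p = 0.0551 to 0.185). Kcnh3 shares exons with Mcrs1 on the other strand, whose difference was -0.49 (SE 0.25, adjusted p = 0.198). How the counting treated strand is not known from the labels.

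Kcnh7 stood at 4.58, 3.35 and 2.95 CPM in naive catalytic-dead libraries and at 0.773 and 0 CPM in wild-type ones (log2 difference 3.08, SE 0.61, limma adjusted p = 1.555e-03), a call lost without wild-type library b (adjusted p = 0.0729). In formative catalytic-dead cells it was at 0.716, 0.851 and 0.578 CPM, a fall of 2.05 (SE 0.51, adjusted p = 2.95e-03). The catalytic-dead state change was below the wild-type one by 3.36 (SE 0.84, adjusted p = 0.0225), lost without naive wild-type library b, formative wild-type library c or library a of either catalytic-dead state (adjusted p = 0.0506 to 0.185). Exons of Kcnh7 are shared with Gca, which lies on the opposite strand. Gca also rose in naive catalytic-dead cells against wild type, by 2.91 (SE 0.25, adjusted p = 2.588e-08), and fell by 1.80 at their state change (SE 0.18, adjusted p = 4.797e-08). Reads of Kcnh7 and Gca cannot be told apart without knowing how strand was treated. Kcnd1, a transient A-type channel, lay between 1.81 and 9.50 CPM over all libraries and passed the threshold in no comparison.

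**Figure D5:**
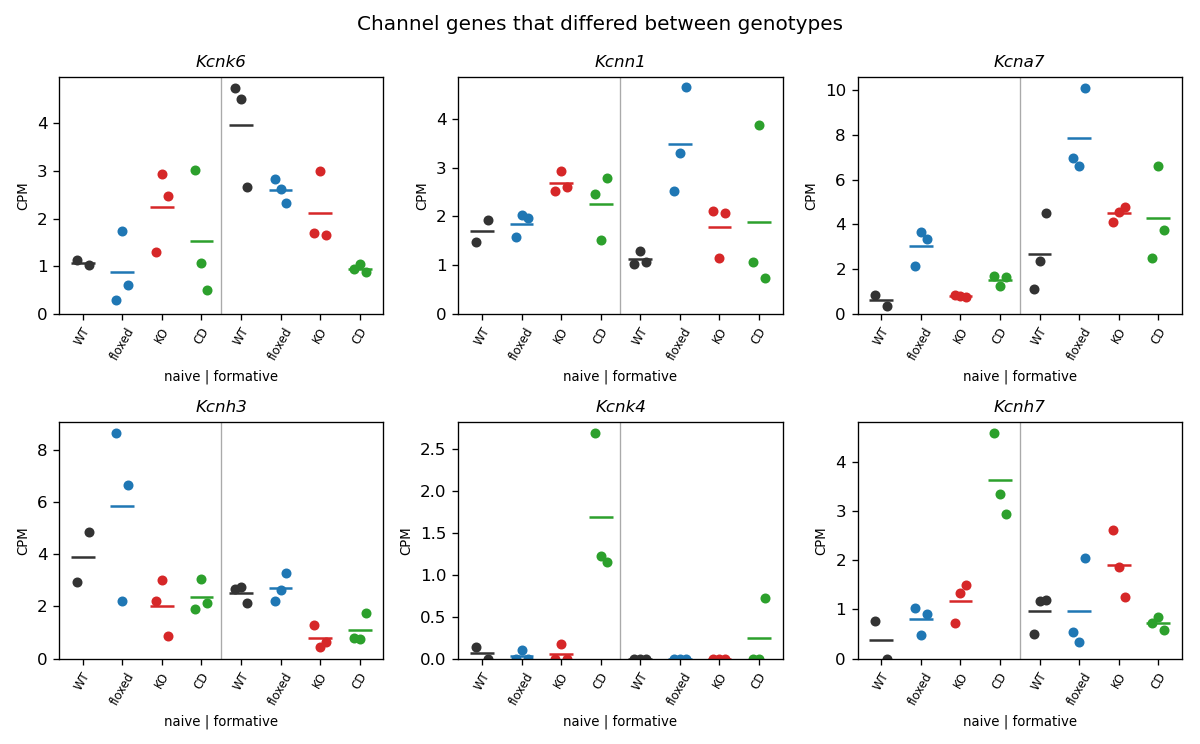
Level (CPM, vertical axis) of 6 channel genes that differed between genotypes in each recovered library (points), by genotype in naive (left of the line) and formative cells, with bars at group means. Formative catalytic-dead libraries of Kcnk6 lie at 0.867 to 1.04 CPM, below all formative wild-type ones.

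Silent Kv subunits and the Kcne class held 1 gene that fell and 1 that rose in all 4 genotypes. Kcns3 encodes Kv9.3 and modifies other Kv channels. It fell in wild-type cells from 7.87 and 6.11 CPM to 1.15, 0.589 and 1.20 CPM, or 7.14-fold (log2 difference -2.64, SE 0.42, limma adjusted p = 2.561e-05). In knockout cells it fell from 4.60, 7.37 and 5.69 CPM to 0.601, 1.14 and 0.624 CPM (-2.63, SE 0.45, adjusted p = 7.109e-05). Floxed (-1.88, SE 0.44, adjusted p = 1.49e-03) and catalytic-dead cells (-1.87, SE 0.49, adjusted p = 4.625e-03) began from 2.61 to 5.48 CPM and 2.01 to 3.12 CPM. Formative libraries of all genotypes lay at 0.284 to 1.44 CPM and overlapped. In the naive state catalytic-dead cells were 2.62-fold below wild type (-1.33, SE 0.38, adjusted p = 0.0241), lost without wild-type library a or catalytic-dead library a or b (adjusted p = 0.0588 to 0.199).

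Kcns1, a second silent subunit, rose in wild-type cells from 1 count in 2 naive libraries to 2.02, 0.589 and 1.20 CPM (log2 difference 2.51, SE 0.69, limma adjusted p = 6.391e-03), lost without naive library b (adjusted p = 0.0675). In floxed cells it went from 0, 0 and 0.151 CPM to 0.382, 1.61 and 1.31 CPM (2.25, SE 0.61, adjusted p = 5.426e-03). Kcng2 was at 0 in the naive floxed libraries and at 1.99, 0.847 and 2.05 CPM in the formative ones, at least 15.1-fold higher (adjusted p = 5.837e-05). Kcng1 lay between 0.421 and 3.21 CPM over all libraries and passed the threshold nowhere. Kcne1l, also known as Kcne5, encodes a single-pass protein that restrains Kcnq1 channels. It rose in all 4 genotypes, from at most 0.990 CPM in any naive library to 3.24, 3.92 and 4.12 CPM in wild-type, 2.06, 1.52 and 1.21 CPM in floxed, 3.21, 2.71 and 5.82 CPM in knockout and 5.08, 3.69 and 3.32 CPM in catalytic-dead cells. All formative libraries were above all naive ones, and the log2 differences were 3.56, 3.11, 2.72 and 3.38 (limma adjusted p = 3.904e-05, 6.161e-05, 2.257e-04 and 9.836e-06).

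Calcium-activated channels were low throughout. Kcnn4 encodes the intermediate-conductance channel of lymphocytes and red cells. It rose in floxed cells from 0.838, 0.769 and 0.151 CPM to 3.74, 2.54 and 1.87 CPM (log2 difference 1.98, SE 0.55, limma adjusted p = 6.345e-03), lost without naive library c (adjusted p = 0.0615). It also rose in catalytic-dead cells, from 0.783, 0 and 0.492 CPM to 3.29, 1.80 and 2.75 CPM (2.40, SE 0.58, adjusted p = 2.451e-03). Kcnn2, a small-conductance channel, rose in the same pair of genotypes by 1.46 (SE 0.44, adjusted p = 0.0115) and 1.78 (SE 0.49, adjusted p = 6.614e-03), within a range of 0.328 to 3.28 CPM over all libraries. Kcnn1 was higher in formative floxed (2.52, 3.30 and 4.67 CPM) than wild-type cells (1.01, 1.28 and 1.06 CPM) with no overlap (1.45, SE 0.43, adjusted p = 0.0295). That call was lost without any one wild-type library or floxed library b or c (adjusted p = 0.0584 to 0.119).

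The sodium-activated Slo channel Kcnt2 rose in 3 genotypes. Wild-type libraries went from 0.492 and 0.113 CPM to 3.24, 1.18 and 2.39 CPM (log2 difference 2.30, SE 0.62, limma adjusted p = 5.252e-03), lost without naive library b (adjusted p = 0.109). Floxed libraries went from 1.12, 0.288 and 0.302 CPM to 2.67, 3.22 and 3.92 CPM (2.31, SE 0.50, adjusted p = 6.845e-04). Catalytic-dead libraries went from 0.559, 0.304 and 0.328 CPM to 1.86, 3.88 and 1.88 CPM (2.14, SE 0.53, adjusted p = 3.066e-03). Kcnu1, a sperm Slo channel, lay between 0 and 2.66 CPM and passed the threshold nowhere.

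The antisense RNA Kcnq1ot1, an imprinted transcript that silences neighbouring genes, was more abundant than nearly all channels. The authors' means of it, naive then formative, were 52.0 and 51.0 CPM for wild type and 49.5 and 49.0 CPM for the floxed line. Knockout cells had 67.4 and 93.2 CPM (89.4 CPM in the formative column as deposited) and catalytic-dead cells 61.6 and 78.7 CPM. The mutants were thus 1.36-fold and 1.90-fold above floxed and 1.18-fold and 1.54-fold above wild type, and only naive catalytic-dead and naive floxed cells could be tested against wild type (limma adjusted p = 0.732 and 0.955). Naive catalytic-dead libraries held 77.8, 52.2 and 57.1 CPM against 91.2 and 29.4 CPM in wild type, and the 2 groups overlapped.

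Auxiliary subunits whose symbols fall outside the rule were taken from a list of 25 genes, of which 15 were tested. At the state change 8 rose and none fell in wild-type, 6 rose and 1 fell in floxed, 4 rose and none fell in knockout, and 6 rose and 2 fell in catalytic-dead cells. Over all genes 19.3%, 22.1%, 21.4% and 18.3% rose and 12.3%, 11.4%, 5.5% and 11% fell. The list's median log2 differences were 0.95, 0.69, 0.66 and 0.83, beside 0.16, 0.19, 0.29 and 0.12 over all genes. Kcnip2, a calcium-binding partner of A-type channels, rose in all 4 genotypes, by 0.95 (SE 0.32), 1.49 (SE 0.30), 1.58 (SE 0.47) and 2.56 (SE 0.38) on the log2 scale (limma adjusted p = 0.0233, 4.014e-04, 0.0127 and 1.012e-05). Dpp6, another partner of these channels, rose in all 4 as well, by 1.15, 1.38, 2.46 and 1.44 (adjusted p = 0.0121, 4.25e-03, 9.879e-05 and 0.0195). In naive knockout cells 4 of the 15 fell against floxed cells and none rose, against 9.41% and 8.21% of all genes. The 4 were Kcnip2, Kcnab3, Abcc8 and Dpp6. Among HCN channels, 3 were tested. At the state change 1 rose in wild-type, 1 in floxed, 2 in knockout and 1 in catalytic-dead cells, and none fell. The shares of all genes are those given above. Hcn3 rose in floxed, knockout and catalytic-dead cells.

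Of the sodium and potassium pump genes, 7 or 8 of a list of 14 were tested. At the state change 2, 3, 1 and 2 rose and 3, 4, 0 and 4 fell in wild-type, floxed, knockout and catalytic-dead cells. In naive knockout cells 4 of 7 were lower than in floxed cells and none higher (9.41% and 8.21% of all genes). In naive catalytic-dead cells 3 of 7 were higher than in wild type and none lower (6.15% and 4.57%). Atp1b2, a regulatory beta subunit, was lower in naive knockout than floxed cells (log2 difference -2.63, SE 0.36, limma adjusted p = 5.861e-06). It was higher in naive catalytic-dead than wild-type cells (1.68, SE 0.26, adjusted p = 1.309e-04). Voltage-gated sodium and calcium channel genes, with 16 or 17 tested, had 5, 6, 6 and 8 that rose at the state change in wild-type, floxed, knockout and catalytic-dead cells and 2 that fell in each, beside 18.3% to 22.1% of all genes that rose and 5.5% to 12.3% that fell. Of the chloride cotransporters and their kinases, with 9 to 11 tested, 3, 2, 3 and 5 rose and 1, 0, 0 and 1 fell in the same order. Among them the kinase Wnk2 rose in all 4 genotypes by 2.25 to 3.79.

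Markers of other cell types also differed between some of these groups, in differing directions. Of 7 neuron markers tested in wild-type cells, 6 rose at the state change, against 19.3% of all genes, and Tubb3 fell, from a mean of 61.2 to 22.8 CPM. Stmn2, which had no test, was the highest, with a mean of 687 CPM before and 101 CPM after it. In formative knockout cells 3 of 6 neuron markers tested were higher than in floxed cells and none lower, against 10.8% and 6.68% of all genes. Rbfox3, a marker of mature neurons, was at 0.415 to 1.46 CPM in the naive columns and 2.28 to 4.22 CPM in the formative ones, and Dcx was at 0 in all 4 naive columns and at most 1.48 CPM in the formative ones. The summed level of the 8 neuron markers ran from 183 to 756 CPM in naive and from 113 to 379 CPM in formative columns. Summed primitive endoderm markers were higher in naive knockout (26.8 CPM) and naive catalytic-dead cells (52.1 CPM) than in floxed (3.76 CPM) and wild-type cells (4.81 CPM), nearly all from Dab2, while Gata6 stayed at or under 1.28 CPM. Of the trophoblast markers, 3 of 3 tested were higher in naive knockout than in floxed cells, against 8.21% of all genes, with a median log2 difference of 2.24. The summed level of the 5 in the table was 209 CPM in naive knockout, 95.7 CPM in naive floxed, 133 CPM in naive wild-type and 129 CPM in naive catalytic-dead cells, led by Tfap2c, and Cdx2 was at 3.42, 0.516, 1.01 and 1.90 CPM. These naive knockout cells also had the lowest channel sums. Of 4 fibroblast markers tested, 2 were higher and 1 lower in formative knockout than floxed cells (10.8% and 6.68% of all genes). In formative catalytic-dead cells 1 was higher than in wild type and none lower (4.67% and 3.36%). Col1a2 had a higher mean in formative knockout (7.98 CPM) than floxed cells (0.962 CPM). Its mean was also higher in formative catalytic-dead (11.0 CPM) than wild-type cells (1.98 CPM). Thy1 went the other way, at 0.489 against 6.03 CPM and 1.84 against 3.45 CPM. The summed level of the 4 fibroblast markers was 2.65 to 15.5 CPM over all columns. Summed cardiomyocyte markers stayed at or under 9.58 CPM in all columns. The part of these markers in the channel values was not tested.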

How the data were processed

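RNA from 24 labelled samples was made into QuantSeq 3′ FWD libraries and read single-end for 50 bases, per the labels' protocols. Per the submitters' processing notes, the tools were cutadapt 2.5, STAR, featureCounts of Subread 1.6.4, FastQC 0.11.8, MultiQC and DESeq2 1.34.0, with the mm10 build. Replicates were cultured and prepared independently, per the design text. The deposited table holds log2 CPM values averaged by the authors over each group, with a prior count of 2, as checked from the values.

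The floxed line was taken to be the one named conditional in the column names. Counts of single libraries were solved from these means (Python 3.11.15, numba 0.67.0), with solved library sizes within 0.022 of whole numbers, and the total left 6812462 counts that belong to no column. A solution had to be the only one in a search window around the group mean, with at most 0.3 solutions expected by chance. The window ran from 30 down to 1.0 on the log2 scale and was narrowed for genes with more counts. The closeness of library values of such genes could thus be set in part by the search. Abundant genes could not be recovered and have no test. limma 3.58.1 (R 4.3.3) fitted 1 weighted model of 8 groups, with weights from a lowess trend (span 0.3) of the spread on the count, moderated variances with a trend and Benjamini-Hochberg adjustment over all genes tested. The filter was 10 counts at the median library size of 10191824 in at least 3 libraries, and unrecovered values were taken to pass it. Recovery and test were tested on simulated data. The spread between libraries holds counting error as well as differences between cultures, and genes under 1 CPM rest on few counts.

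Members were named when past the threshold in at least 1 comparison, when untested with means that differed 2-fold or more, or when among the most abundant. Some genes are included in the counts and sums but are not reported here by name. Members, lists and tests were chosen with earlier results of these data known. Alternatives were no filter, a filter of 30 counts, size factors, a prior count of 0.5, no weights, the compared groups alone, the formative knockout column as deposited, and leaving out each library.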

Additional observations from a re-analysis of the deposited data

Results flagged for a closer look

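The state change of 3 channels differed between genotypes by a test of the difference itself (limma, adjusted over all genes). For Kcnq3 the knockout change was below the floxed one by a log2 value of -2.62 (adjusted p = 0.0218), with 2.51, 1.14 and 1.46 CPM in formative knockout and 6.87, 5.25 and 3.08 CPM in formative floxed libraries. For Kcnj3 the catalytic-dead change was below the wild-type one by -2.86 (adjusted p = 0.0225), with 2.65, 1.70 and 1.59 CPM against 26.2, 21.5 and 31.8 CPM in the formative libraries. For Kcnh7 the value was -3.36 (adjusted p = 0.0225), with 4.58, 3.35 and 2.95 CPM in naive catalytic-dead and 0.773 and 0 CPM in naive wild-type libraries. Gca, which shares exons with Kcnh7 on the other strand, had a difference of -1.95 in the same test (adjusted p = 1.317e-03). Each of the 3 channel calls was lost when some single libraries were left out.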

How the results depend on the processing

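Of 94 member results past the threshold, 40 were lost in at least 1 alternative and none reversed. The other 54 stayed past it in every alternative in which the gene was tested. A gene that an alternative left out of the test is thus counted as kept. In the wild-type state change the filter of 30 counts tested 18 channels, of which 9 rose, where the main fit tested 30, of which 13 rose. Median-ratio size factors shifted the median of all genes by -0.14 in the wild-type, -0.14 in the floxed and -0.24 in the knockout state change, by -0.13 for naive catalytic-dead cells and by -0.10 in the knockout and floxed difference. The counts of called channels kept within 1.5 times in all alternatives for the 4 state changes and naive knockout against floxed. Without weights they were 3 in naive catalytic-dead against wild type and 2 in the knockout minus floxed difference. With the compared groups alone they were 2 in naive catalytic-dead, 0 in naive floxed and 2 in formative floxed cells against wild type. A prior count of 0.5 gave 0 in naive floxed cells, 0 in the knockout minus floxed difference and 1 in the catalytic-dead minus wild-type difference. The stricter filter gave 3 and the formative knockout column as deposited gave 2 in the knockout minus floxed difference. Leaving out 1 library gave 1 to 4 in formative knockout, 2 to 5 in naive and 2 to 5 in formative catalytic-dead, 0 to 1 in naive and 1 to 4 in formative floxed cells, 0 to 3 in the knockout minus floxed difference and 0 to 2 in the catalytic-dead minus wild-type difference. The cause was not tested. Without 1 naive wild-type library the other one is alone and was assumed to vary like the other groups. Among single genes, the compared groups alone lost 12 calls (adjusted p = 0.0629 to 0.188), among them Kcna7 in the wild-type state change and naive floxed cells, Kcnn1 in formative floxed, Kcnh3 in naive and Kcnj4 in formative knockout, Kcnj12 and Kcns3 in naive catalytic-dead, and Kcnq3 in formative catalytic-dead cells. Without weights 7 were lost (0.0653 to 0.164), among them Kcnj4 in formative knockout, Kcnj12 and Kcns3 in naive catalytic-dead, and Kcnq3 in formative catalytic-dead cells. A prior count of 0.5 lost 9 (0.0527 to 0.163), among them Kcna7 in naive floxed and Kcnq3 in formative catalytic-dead cells, Kcnc4 and Kcnk2 in the wild-type and Kcnh8 in the catalytic-dead state change, and the differences between state changes of Kcnj3 and Kcnq3. No paired analysis was possible because the recovered libraries carry no replicate numbers. Levels under 1 CPM rest on few counts, so missed calls there do not show equal levels.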
